A study of Mus musculus with 48 samples.

Results

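Heat shock proteins are the chaperones that help other proteins fold and keep damaged proteins from clumping. The set followed here held 10 mouse genes: Hspa1a, Hspa1b, Hspa2, Hspa8, Hsph1, Dnajb1, Hsp90aa1, Hspb1, Hspd1 and Hspe1. These were chosen by name, with earlier results of these data known. The FROZ (frozen) liver table listed 9 of them among 11275 genes and did not list Hspa1b. The FFPE (formalin-fixed paraffin-embedded) liver table listed 8 of them among 6673 genes, without Hspa2 and Dnajb1, and 7 were in both tables.

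Expression was measured by TempO-Seq, in which pairs of detector oligos are ligated on their target RNA and counted by sequencing. The tissue was liver of male B6C3F1 mice, 4 weeks old, archived after a proliferation experiment. Dichloroacetic acid (DCA), a by-product of water disinfection, was given in the drinking water for 6 days at 0 (vehicle), 198, 313 or 427 mg/kg-d, with 6 mice per dose. The 24 mice each gave 1 FROZ and 1 FFPE library, and the 3 DCA groups share the same 6 vehicle mice. The lobes sampled were not quite the same, with the right medial lobe in both and the caudate part named for FROZ, and FROZ libraries were made from purified RNA while FFPE libraries were made from a lysate. In such bulk tissue fewer cells of a type and less RNA per cell cannot be told apart. The paper reports decades of storage before sequencing and low integrity numbers for the FROZ RNA. It also reports a smaller share of aligned reads in FFPE than in FROZ libraries. The part of storage and RNA quality in the member results was not tested.

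Values are log2(CPM + 1), where CPM is counts per 1000000 reads of the genes in a table. Depth, estimated from the size of 1 read in the low values, was 6.69 to 9.84 M reads (M, 1000000) in FROZ and 1.83 to 6.01 M reads in FFPE, with the shallowest FFPE library from animal 49. Hepatocyte markers, 7 of 8 listed in FROZ, summed to 30416 to 39093 CPM in vehicle, 30351 to 41278 at 198, 25943 to 31621 at 313 and 27337 to 32309 at 427 mg/kg-d. In FFPE, 6 of 8 were listed. Vehicle sums were 39211 to 53175 CPM, those of the lowest dose 42471 to 66911 and those of the middle dose 38841 to 45283. The highest dose gave 28386 to 32981 CPM, with no overlap with vehicle. Of all FFPE genes, 1.54% lay wholly below the vehicle range there. Taken singly and as deposited, 1 of the 7 FROZ markers fell at the middle dose and 1 rose at the highest. Of the 6 FFPE markers 1 fell, at the highest dose. No other hepatocyte marker was called in either table. Counts under another scaling are given below. The part of the hepatocyte markers in the member results was not tested. The authors attenuated some abundant probes equally in all samples, those of Hspa2 and Hsp90aa1 included, and the tables hold no probe lengths, so levels were compared within a gene and not between genes.

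In the heat shock response, the transcription factor HSF1 binds repeats of the letters nGAAn, called heat shock elements, and switches on the inducible genes. Hspa1a and Hspa1b encode the inducible cytosolic HSP70 proteins, and Hspa8 encodes the constitutive one. HSP70 proteins act with J-domain partners such as Dnajb1 and nucleotide exchange factors such as Hsph1. Hsp90aa1 is the inducible cytosolic HSP90, Hspb1 is a small heat shock protein, and Hspd1 and Hspe1 form the folding chamber of mitochondria. Hspa2 is an HSP70 best known from testis.

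Upstream sequences of Hspa1a, Hspb1 and the Hspd1 and Hspe1 pair are given because these members passed a test below, that of Hspa1b for its likeness to Hspa1a, and the site of Hsph1 as a member that did not pass. RefSeq windows on GRCm38.p6 were on hand for 8 of the 10 members, at 11 start sites, and none was on hand for Hspa8 or Hsp90aa1. Each window was searched over the 250 bases before the start for GAANNTTC or TTCNNGAA, each of which reads the same on both strands, and for the longer GAANNTTCNNGAA or TTCNNGAANNTTC, which are each other's reverse complement and contain the shorter forms. A short form stood at 7 of the 11 start sites, against 12.8% of 32851 windows of all genes, and a long form before Hspe1 and the inner Hspd1 start, against 0.466% of all windows. These matches are not independent, since the Hspa1a and Hspa1b windows are nearly the same, the Hsph1 starts share a site and Hspd1 and Hspe1 share another. Hspa2 and Dnajb1 had neither in these windows. A match of letters is a description and not a shown binding site. In the lines below, capitals mark the GAA and TTC letters of each match, and sequences run 5′ to 3′ on the gene's strand.
Hspa1a, chr17:34972157-34972406, minus strand: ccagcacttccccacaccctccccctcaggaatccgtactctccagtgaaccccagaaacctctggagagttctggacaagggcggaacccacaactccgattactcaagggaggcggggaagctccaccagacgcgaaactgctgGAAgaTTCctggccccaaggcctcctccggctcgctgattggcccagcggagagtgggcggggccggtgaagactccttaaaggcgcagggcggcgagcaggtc
Hspa1b, chr17:34959239-34959488, minus strand: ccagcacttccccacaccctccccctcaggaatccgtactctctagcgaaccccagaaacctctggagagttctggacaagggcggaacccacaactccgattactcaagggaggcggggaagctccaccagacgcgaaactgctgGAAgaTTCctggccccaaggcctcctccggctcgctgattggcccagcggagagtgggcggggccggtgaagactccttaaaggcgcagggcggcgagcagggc
Hspb1, chr5:135887669-135887918, plus strand: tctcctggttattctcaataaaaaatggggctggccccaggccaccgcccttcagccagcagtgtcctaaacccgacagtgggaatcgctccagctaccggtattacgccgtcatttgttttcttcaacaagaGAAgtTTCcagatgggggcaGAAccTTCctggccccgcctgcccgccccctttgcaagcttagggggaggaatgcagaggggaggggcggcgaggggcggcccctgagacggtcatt
Hspe1 and Hspd1, shared site, chr1:55088053-55088082, plus strand: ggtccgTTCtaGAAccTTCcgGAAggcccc
Hsph1, chr5:149636351-149636380, minus strand: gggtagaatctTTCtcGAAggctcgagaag

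The Hspa1a and Hspa1b windows differed at 3 of 250 bases, and the matched letters lay 104 to 97 bases before both start sites. Their start sites lie 12918 bp apart on chromosome 17, with 9951 bp between the genes, each as 1 exon in GENCODE vM21. Of the distinct 50-base stretches in Hspa1a transcripts, 58.8% also occurred in Hspa1b. Hspd1 (chr1:55077835-55088243, minus strand) and Hspe1 (chr1:55088132-55091307, plus strand) start head to head, so the shared site lies upstream of Hspe1 and upstream of the inner of the Hspd1 starts. The site shown is kept to 30 bases because annotated exons cover the surrounding stretch.

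Hspa1a fell at every DCA dose in FROZ liver, and Hspd1, Hspe1 and Hspb1 rose at the upper doses, each by under 1 on the log2(CPM + 1) scale. The vehicle livers held Hspa1a at 2.62, 3.37 and 4.17 (lowest, median and highest log2 value). The 198 mg/kg-d livers held 0.61, 1.43 and 2.14, the 313 mg/kg-d livers 0.61, 1.14 and 2.19, and the 427 mg/kg-d livers 0.95, 1.96 and 2.36. All 18 treated livers were below all 6 vehicle livers, while the 3 treated groups overlapped one another.

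On the log2(CPM + 1) scale, Hspa1a fell by 2.05 at 198 mg/kg-d (SE 0.31, 6 against 6 livers, limma FDR 0.00081). It fell by 2.15 at 313 mg/kg-d (SE 0.31, limma FDR 1.2e-05) and by 1.56 at 427 mg/kg-d (SE 0.31, limma FDR 0.00036). In mean CPM, the vehicle level of 10.5 was 5.99 times that at 198 mg/kg-d, 6.64 times that at 313 mg/kg-d and 3.79 times that at 427 mg/kg-d. These are low levels: about 46.4 to 156 reads a library in vehicle livers and 4.00 to 34.4 in treated ones. In 12 of 24 FROZ libraries the estimated Hspa1a reads were not whole (by more than 0.1 read), as 4.42 in animals 52 and 54, so the division of reads between Hspa1a and Hspa1b, described for FFPE below, also touches the FROZ values, and the FROZ table does not list Hspa1b.

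At 198 mg/kg-d, Hspa1a was the only member with an FDR under 0.05, where 1.56% of all genes had one, 1.12% higher and 0.443% lower. On the log2(CPM + 1) scale it was also the only member past the study's threshold for a differentially expressed gene (DEG; FDR under 0.05 and a fold change above 2), which 0.106%, 2.31% and 3.5% of all genes passed in order of dose. Lower DEGs alone were 0.0621%, 0.887% and 1.24% of all genes. Treated livers lying wholly below the vehicle range were seen for 0.479%, 2.39% and 3.27% of all genes at the 3 doses, and wholly above it for 1.41%, 9.14% and 11.4% (1.89%, 11.5% and 14.7% in either direction). All 5 alternative settings that kept the gene and all 24 fits without 1 animal kept each of the 3 Hspa1a calls.

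**Figure D1:**
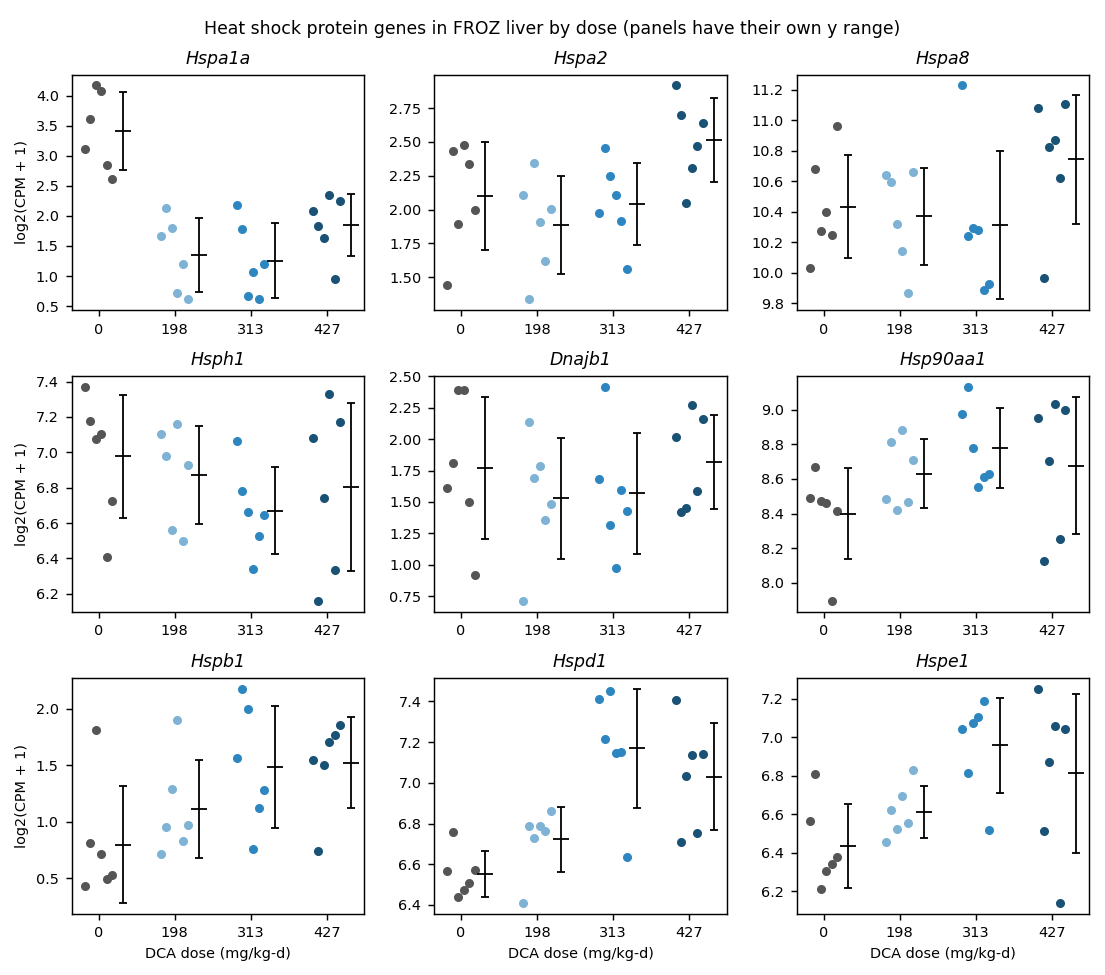
Log2(CPM + 1) of the 9 listed members in FROZ liver by DCA dose in mg/kg-d. Points are livers, 6 per dose, and the dash with its bar is the mean ± SD. Hspa1a sits between 2.62 and 4.17 in vehicle livers and at or below 2.36 in all treated ones, and the Hspd1 and Hspe1 points of the upper doses lie mostly above the vehicle points.

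Hspd1, which encodes HSP60 and forms the barrel of the mitochondrial chamber, stood at 6.44, 6.54 and 6.76 in vehicle FROZ livers. The 198 mg/kg-d livers held 6.41, 6.78 and 6.86, the 313 mg/kg-d livers 6.63, 7.18 and 7.45, and the 427 mg/kg-d livers 6.71, 7.09 and 7.41. At 313 mg/kg-d 5 of 6 livers, and at 427 mg/kg-d 4 of 6, were above every vehicle liver, so the groups overlapped. The rise was 0.62 at 313 mg/kg-d (SE 0.12, limma FDR 0.00037) and 0.48 at 427 mg/kg-d (SE 0.12, limma FDR 0.0031). The difference at 198 mg/kg-d was 0.17 (SE 0.12, limma FDR 0.49), which did not pass the threshold.

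Hspe1, the lid of that chamber, stood at 6.21, 6.36 and 6.81 in vehicle livers, at 6.46, 6.59 and 6.83 in those of the lowest dose, and at 6.52, 7.06 and 7.19 at 313 mg/kg-d. The 427 mg/kg-d livers spread more widely, at 6.14, 6.96 and 7.25, with animal 101 below every vehicle liver and 4 of 6 livers above them. Hspe1 rose by 0.52 at 313 mg/kg-d (SE 0.14, limma FDR 0.0084) and by 0.38 at 427 mg/kg-d (SE 0.14, limma FDR 0.048). The call at 427 mg/kg-d was lost in 3 of 6 alternative settings and in 17 of 24 fits without 1 animal. Over the 24 FROZ livers, with dose means removed, deviations of Hspd1 and Hspe1 ran together (Pearson r = 0.81), a description over points that share the same libraries. In the FFPE libraries of the same animals they did not (r = -0.11), but there Hspe1 held only 0, 1 and 3 reads in animals 3, 8 and 54.

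Hspb1, which encodes HSP25, was measured at few reads, with 3 to 23 reads in vehicle livers. Its vehicle values were 0.43, 0.62 and 1.81, where the highest, from animal 5, was far above the other vehicle livers. At 313 mg/kg-d the values were 0.76, 1.42 and 2.18, and at 427 mg/kg-d 0.74, 1.63 and 1.85. It rose by 0.69 at 313 mg/kg-d (SE 0.25, limma FDR 0.044) and by 0.72 at 427 mg/kg-d (SE 0.25, limma FDR 0.030), with overlapping groups. In mean CPM the ratio to vehicle was 2.31 and 2.3, and with an offset of 0.1 in place of 1 the differences were 1.24 and 1.32 (limma FDR 0.029 and 0.018), so with that offset Hspb1 was past both DEG limits. Fits without 1 animal lost the first call in 8 of 24 cases and the second in 7 of 24.

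The other 5 listed members did not pass the threshold at any dose in FROZ liver. Hsp90aa1 came closest. Its vehicle livers stood at 7.89, 8.47 and 8.67, and its livers of the middle dose at 8.55, 8.70 and 9.13, with 3 of 6 above the vehicle range and a difference of 0.38 (SE 0.15, limma FDR 0.060). Hspa2 differed by 0.42 at 427 mg/kg-d (SE 0.19, limma FDR 0.10), with 3 of 6 livers above the vehicle range. Hspa8 lay between 9.87 and 11.23 in all 24 livers, and its differences ranged from -0.12 (SE 0.21) to 0.31 (SE 0.21). Hsph1 differed by at most 0.31 in size (-0.31 at 313 mg/kg-d, SE 0.18, limma FDR 0.22), and Dnajb1 by -0.24 at 198 mg/kg-d (SE 0.25, limma FDR 0.68).

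In all, 4 of 9 members passed FDR under 0.05 at 313 mg/kg-d, 3 higher and 1 lower, where 26.7% of all genes passed, 20.5% higher and 6.15% lower. At 427 mg/kg-d the same 4 passed, against 30.1% of all genes, 22.7% higher and 7.33% lower. The median difference of all FROZ genes was 0.11 at 313 mg/kg-d and 0.10 at 427 mg/kg-d, and scaling by the median ratio brought these to -0.0044 and -0.0069. Under that scaling 2 members passed at each of these doses, Hspa1a lower and Hspd1 higher. The split of all calls was 2317 higher and 693 lower at 313 mg/kg-d as deposited and 1156 higher and 1220 lower with the median ratio. At 427 mg/kg-d it was 2565 and 826 as deposited and 1423 and 1422 with the median ratio.

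A linear dose trend was fitted to ask whether members followed the dose. Hspa1a had a slope of -0.40 per 100 mg/kg-d (SE 0.10, limma FDR 0.0027), Hspd1 of 0.13 (SE 0.03, limma FDR 0.00089), Hspe1 of 0.11 (SE 0.03, limma FDR 0.015) and Hspb1 of 0.18 (SE 0.06, limma FDR 0.012). With the median ratio the Hspe1 trend no longer passed (slope 0.072, limma FDR 0.12). As deposited these were 4 of 9 members, against 32.2% of all genes, 24.4% rising and 7.73% falling. For Hspa1a the groups differed by rank (Kruskal-Wallis permutation p = 0.00019), but the ordered test did not pass (Jonckheere permutation p = 0.068). Its mean log2 value was 1.36 at 198, 1.25 at 313 and 1.85 at 427 mg/kg-d. Both rank tests passed for Hspd1 (permutation p = 0.0013 and 0.0031) and Hspe1 (permutation p = 0.027 and 0.0085), unadjusted over 9 members, and for Hspe1 the first did not pass with the median ratio (permutation p = 0.11).

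Markers of other cells and of tissue handling were read beside these results. The 6 listed immediate early genes, which respond within minutes to handling and stress, summed to between 73.0 and 130 CPM in vehicle livers, 106 to 157 at 198 mg/kg-d, 95.1 to 147 at 313 mg/kg-d and 97.0 to 146 at 427 mg/kg-d. Of these 6, 1 rose at 198 mg/kg-d, 4 rose and 1 fell at 313 mg/kg-d, and 4 rose at 427 mg/kg-d. The 5 listed Kupffer cell markers summed to 67.5 to 104 CPM in vehicle livers and 55.0 to 74.9 CPM at 427 mg/kg-d, where 3 of them fell. The 4 erythroid markers summed to 42.6 to 84.2 CPM in vehicle livers, 40.3 to 46.6 at 198 mg/kg-d, 21.3 to 38.9 at 313 mg/kg-d and 24.4 to 53.3 at 427 mg/kg-d. The 6 endothelial markers summed to 135 to 158 CPM in vehicle livers, 110 to 138 at 313 mg/kg-d and 109 to 136 at 427 mg/kg-d, with 1 lower at each of these doses. Of 3 neutrophil markers 2 rose at 313 mg/kg-d, from sums of 3.54 to 6.69 CPM in vehicle livers to 3.79 to 11.7 CPM. Of 6 stellate markers 1 rose and 1 fell at 313 mg/kg-d and 2 fell at 427 mg/kg-d, and no cholangiocyte (3 listed) or lymphoid (4 listed) marker was called at any dose. These marker counts are as deposited. With the median ratio 3 endothelial and 3 hepatocyte markers fell at 313 and at 427 mg/kg-d, and 1 cholangiocyte marker fell at 427 mg/kg-d. Of the stellate markers 2 then fell at 313 mg/kg-d, and of the immediate early genes 3 rose and 1 fell at 427 mg/kg-d. The part of these markers in the member results was not tested.

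**Figure D2:**
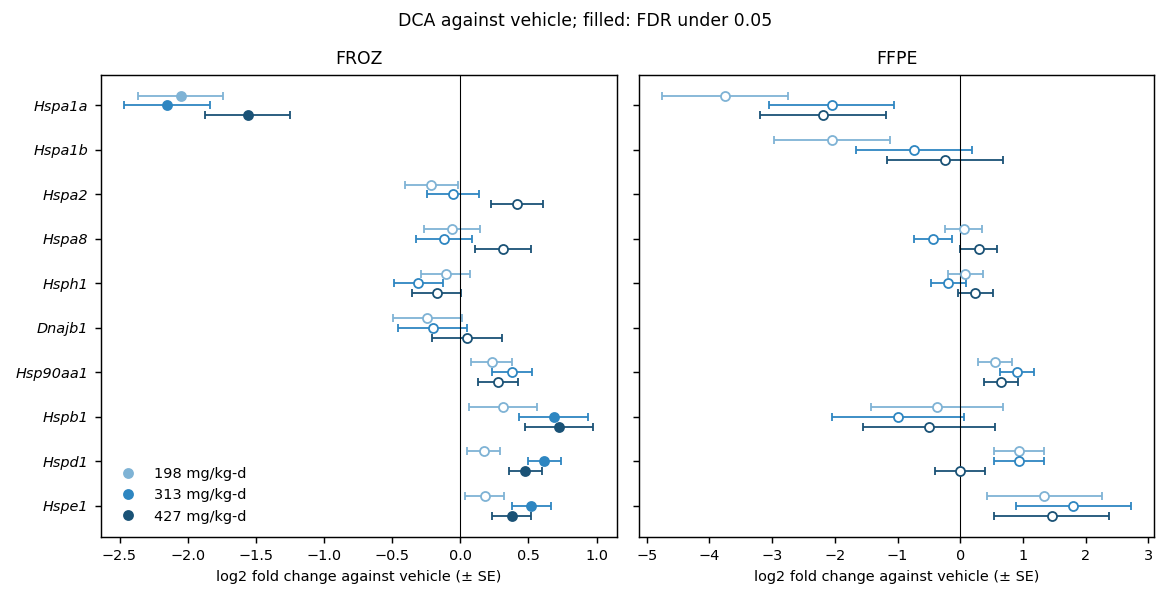
Log2 fold change of each member against vehicle at 3 DCA doses, FROZ on the left and FFPE on the right, with ± SE bars; filled points have an FDR under 0.05 and the x ranges of the panels differ. The Hspa1a points lie at -2.05, -2.15 and -1.56 in FROZ and at -3.75, -2.05 and -2.19 in FFPE, where no point is filled and the bars are wider.

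The rest of the chaperone network was read from lists of 93 further genes, of which 85 were in the FROZ table. At 427 mg/kg-d 23 of the 85 rose and 9 fell (37.6% called, against 30.1% of all genes), and their median difference of 0.16 stood beside 0.10 for all genes. With the median ratio the split turned to 6 higher and 14 lower. By family, 9 of 23 J-domain (HSP40) genes rose and 3 fell, 3 of 9 HSP70 and HSP110 genes rose and 2 fell, and 6 of 25 cochaperones rose and 2 fell. With the median ratio these families stood at 5 higher and 4 lower, 0 higher and 3 lower, and 0 higher and 3 lower. None of the 8 TRiC genes, subunits of the cytosolic folding chamber, was called at 427 mg/kg-d, while 5 of 8 rose at 313 mg/kg-d as deposited and 0 of 8 with the median ratio. In the list of 5 heat shock factors and regulators, Hsf4 and Hsbp1, which encodes a factor binding protein, rose, neither of them with the median ratio, and Hsf1 differed by 0.26 (SE 0.15, limma FDR 0.20).

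The lowest FDR in these lists belonged to Dnajc2, a chaperone of the ribosome, which rose by 0.68 (SE 0.08, limma FDR 2.5e-07). Dnajb5, a J-domain protein, fell by 1.24 (SE 0.17, limma FDR 3e-06). On the log2(CPM + 1) scale, which understates low genes, it was the only 1 of these 32 called genes with a fold change above 2. Fkbp5, an HSP90 cochaperone known as a glucocorticoid target, fell by 0.82 (SE 0.15, limma FDR 0.00013). Dnaja2, an HSP70 partner, rose by 0.89 (SE 0.21, limma FDR 0.0015). Bag1 and Bag6, partners of HSP70, rose by 0.32 and 0.30, Hspa4 and Hspa14 by 0.38 and 0.35, and Dnajc5, Dnajc7, Unc45a and Fkbp8 by 0.39, 0.48, 0.38 and 0.26. Of these 8, Dnajc5 and Dnajc7 alone kept an FDR under 0.05 with the median ratio. These differences are for the highest dose. At 198 mg/kg-d 2 of the 85 genes were called (2.35%, against 1.56% of all genes). Fkbp5 fell by 1.29 (SE 0.15, limma FDR 2.3e-05) and Dnajc2 rose by 0.35 (SE 0.08, limma FDR 0.024). With the median ratio Fkbp5 kept its call, Dnajc2 did not pass (0.26, limma FDR 0.13) and Dnajb5 fell by 0.72 (limma FDR 0.029). At 313 mg/kg-d 21 rose and 9 fell (35.3% called, against 26.7% of all genes, 20.5% higher and 6.15% lower). With the median ratio the split turned to 5 higher and 13 lower. As deposited, Fkbp5 fell by 1.06 (limma FDR 9.8e-06) and the cochaperone Bag3 by 0.60 (limma FDR 0.0026). Bag3 did not pass at 198 mg/kg-d (-0.44, limma FDR 0.10) or at the highest dose (-0.22, limma FDR 0.26).

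Genes were also grouped by compartment after the values were seen, so the counts are a description. Of 16 mitochondrial chaperones and partners, Hspd1 and Hspe1 included, 9 rose and 1 fell in FROZ at 427 mg/kg-d, with a median difference of 0.33. Of all FROZ genes 22.7% rose and 7.33% fell at this dose, with a median difference of 0.10. Dnajc15 and Dnajc19, J-domain proteins of the import motor, rose by 0.53 and 0.42, and the nucleotide exchange factors Grpel1 and Grpel2 rose by 0.35 and 0.67. Hspa9, the mitochondrial HSP70, rose by 0.32 (SE 0.09, limma FDR 0.0082), and the protease gene Lonp1 fell by 0.18. With the median ratio the mitochondrial counts were 3 higher (Dnajc15, Grpel2 and Hspd1) and 3 lower (Lonp1, Trap1 and Yme1l1), with a median of 0.19.

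Of the 10 chaperones placed in the endoplasmic reticulum group 5 fell and none rose at 427 mg/kg-d, with a median difference of -0.50. Of all genes 7.33% fell. Dnajb12 and Dnajb14, J-domain proteins of the membrane of this compartment, were not placed in the group. They rose by 0.33 and 0.43 (limma FDR 0.030 and 0.013), and neither passed with the median ratio (limma FDR 0.22 and 0.081). Hsp90b1, the HSP90 of this compartment, fell by 0.85 (SE 0.13, limma FDR 1.8e-05), and Hspa5, its HSP70 known as BiP, fell by 0.77 (SE 0.20, limma FDR 0.0045). The J-domain proteins Dnajb11 and Dnajc3 fell by 0.68 and 0.69, and the exchange factor Hyou1 by 0.66. These 5 kept their calls with the median ratio, where 7 of 10 fell. In FFPE liver at 427 mg/kg-d, 3 of 9 listed genes of the endoplasmic reticulum fell, Hsp90b1, Hspa5 and Hyou1, by 1.17, 1.10 and 1.20. Of 14 listed mitochondrial genes 1 was called there, Hspa9, which rose by 0.99 (SE 0.25, limma FDR 0.024). Of all FFPE genes 1.54% rose and 0.869% fell at this dose.

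**Figure D3:**
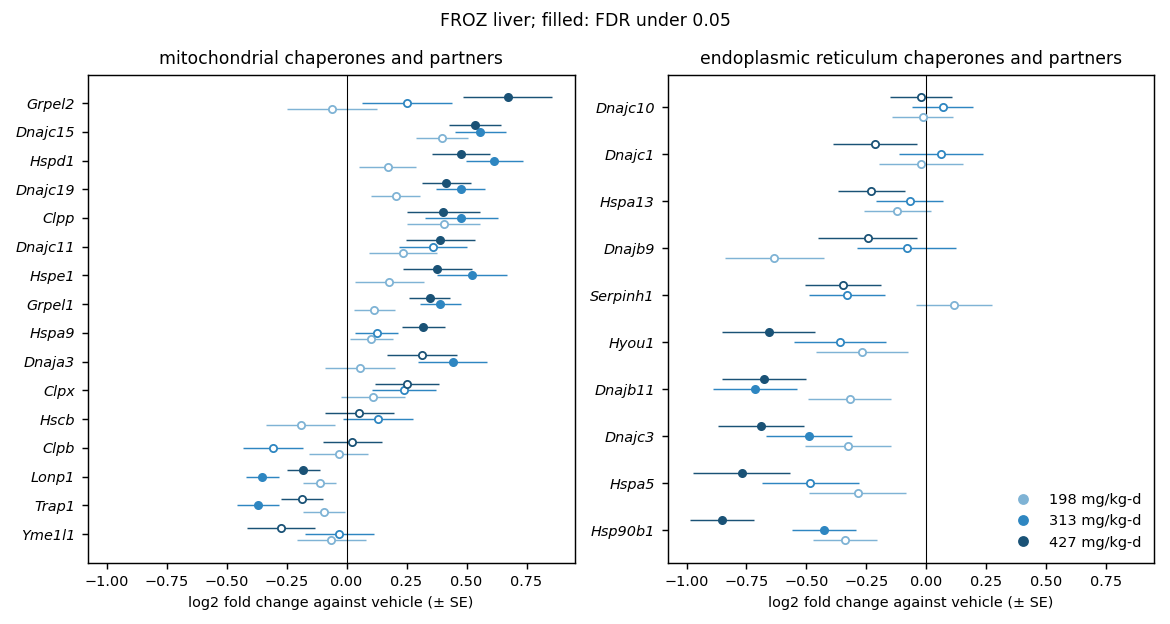
Log2 fold change against vehicle (± SE) of 16 mitochondrial genes on the left and 10 endoplasmic reticulum genes on the right in FROZ liver at 3 DCA doses; filled points have an FDR under 0.05. At 427 mg/kg-d the mitochondrial points run from -0.27 to 0.67 with 9 filled above 0, and those of the endoplasmic reticulum run from -0.85 to -0.02 with 5 filled below 0. Of all FROZ genes 22.7% rose and 7.33% fell at that dose.

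Within dose groups, several inducible members varied together across FROZ livers. The 10 pairs of Hspa1a, Hsph1, Dnajb1, Hsp90aa1 and the constitutive Hspa8 ranged from r = 0.04 (Hspa8 and Dnajb1) to 0.88, with a median of 0.48. The deviations of Hsph1 and Hsp90aa1 from their dose means correlated at Pearson r = 0.88 over 24 livers, Hsp90aa1 and Dnajb1 at 0.59, and Hspa1a and Dnajb1 at 0.60, while Hspa2 and Hsp90aa1 stood at -0.03. The mean standardized deviation of these 5 genes was highest in animal 73 at 313 mg/kg-d (1.30) and lowest in animal 98 at 427 mg/kg-d (-1.45). The 8 other genes most like that mean were Stip1 (r = 0.89), Hsp90ab1 (0.88), Mettl7b (0.78), Cacybp (0.77), Fam133b (0.73), Hsd17b4 (0.71), P4ha1 (0.71) and Ahsa2 (0.71). Stip1 and Hsp90ab1 themselves differed by 0.11 (SE 0.12, limma FDR 0.54) and 0.13 (SE 0.13, limma FDR 0.47) at 427 mg/kg-d. All points of these correlations come from the same 24 libraries and share their depth and handling, and no background r over other gene pairs is given. In FFPE, which does not list Dnajb1, pairs of the others ranged from r = -0.06 (Hspa1a and Hspa8) to 0.68 (Hsph1 and Hsp90aa1).

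In FFPE liver no member passed FDR under 0.05 at any dose by limma. At an unadjusted p under 0.05 there were 4 of 8 members at 198 mg/kg-d (Hspa1a, Hspa1b, Hspd1 and, just inside the limit, Hsp90aa1), against 11.8% of all genes. There were 3 at 313 mg/kg-d (Hspa1a, Hspd1 and Hsp90aa1), against 11.7%, and 2 at 427 mg/kg-d (Hspa1a and Hsp90aa1), against 8.71%. Hspa1a and Hspa1b hold reads divided between them, as described below, so the 4 at 198 mg/kg-d are not 4 separate signals. Few FFPE genes passed FDR under 0.05: 0.0599% at 198, 1.08% at 313 and 2.41% at 427 mg/kg-d, of which the lower calls were 0.03%, 0.315% and 0.869%. No member had a linear trend in FFPE either, where 2.17% of genes had one. The median difference of all FFPE genes was -0.19, -0.12 and 0.18 in order of dose, and -0.19, -0.14 and 0.076 with the median ratio.

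Hspa1a in FFPE stood at 4.91, 5.43 and 6.44 in vehicle livers, at 0.00, 0.93 and 5.41 at 198 mg/kg-d, at 0.00, 3.40 and 7.24 at 313 mg/kg-d and at 1.25, 3.76 and 4.29 at 427 mg/kg-d. Below every vehicle liver were 5 of 6 livers at 198, 5 of 6 at 313 and 6 of 6 at 427 mg/kg-d. The exceptions were animal 50 at 5.41 and animal 73, whose 7.24 was above every vehicle liver. Animals 51, 52 and 75 were listed at 0. The differences were -3.75 (SE 1.00, limma FDR 0.16), -2.05 (SE 1.00, limma FDR 0.42) and -2.19 (SE 1.00, limma FDR 0.50) at the 3 doses. FFPE genes wholly below the vehicle range made up 0.285%, 0.614% and 1.54% of the table at the 3 doses, and those wholly outside it in either direction 0.48%, 1.57% and 4.48% (0.195%, 0.959% and 2.94% above).

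Hspa1b could be read in FFPE only together with Hspa1a. The authors divided reads that match several transcripts by expectation maximization, an iterative split. In 15 of 24 FFPE libraries Hspa1b received 44.8% of the summed CPM of the pair, the same share in each. In 6 libraries it received between 0.0027% and 5.77%, and in the remaining 3 both genes were at 0. The separate levels of the pair are therefore uncertain, and Hspa1b of FROZ liver was not analysed here. As divided by the authors, Hspa1b stood at 0.0012, 2.96 and 5.51 in vehicle livers, 0.00, 0.30 and 3.28 at 198 mg/kg-d, 0.00, 2.85 and 3.73 at 313 mg/kg-d and 1.08, 2.95 and 3.99 at 427 mg/kg-d, with overlapping groups throughout. Its difference was -2.05 at 198 mg/kg-d (SE 0.92, limma FDR 0.38).

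The summed pair was added after the data were seen. It stood at 4.97, 6.03 and 6.65 in vehicle livers, at 0.00, 1.39 and 5.41 at 198 mg/kg-d, at 0.00, 4.19 and 7.24 at 313 mg/kg-d and at 1.81, 4.37 and 5.10 at 427 mg/kg-d. At each DCA dose 5 of 6 livers were below all vehicle livers. The summed differences were -3.89 (SE 1.00, limma FDR 0.15), -1.95 (SE 1.00, limma FDR 0.45) and -1.97 (SE 1.00, limma FDR 0.62), so none passed.

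**Figure D4:**
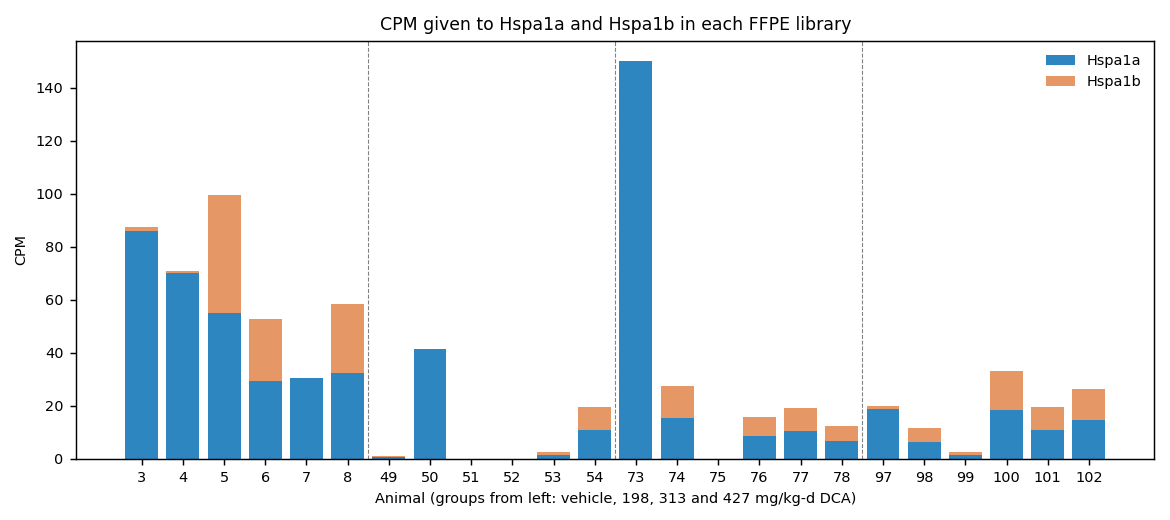
CPM given to Hspa1a and Hspa1b, stacked, in each of the 24 FFPE libraries by animal, with dashed lines between dose groups. The 6 vehicle libraries sum to between 30.4 and 99.4 CPM, animal 73 reaches 150.2 CPM almost wholly as Hspa1a, and animals 51, 52 and 75 are at 0.

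The other FFPE members varied more than in FROZ. Hsp90aa1 stood at 6.72, 7.37 and 8.30 in vehicle livers and at 7.51, 8.51 and 8.87 at 313 mg/kg-d, with 4 of 6 above the vehicle range and a difference of 0.91 (SE 0.27, limma FDR 0.11). Hspd1 stood at 4.39, 5.50 and 6.06 in vehicle livers, 5.76, 6.37 and 7.15 at 198 mg/kg-d and 5.32, 6.43 and 7.30 at 313 mg/kg-d. Of the former group 3 of 6 livers, and of the latter 5 of 6, were above every vehicle liver. Its differences were 0.94 at both of these doses (SE 0.40, limma FDR 0.35 and 0.33) and -0.0048 at 427 mg/kg-d (SE 0.40). Hspe1 ranged from 0.00 to 5.81 in vehicle livers and from 4.05 to 5.38 at 313 mg/kg-d, a difference of 1.80 (SE 0.92, limma FDR 0.44). Vehicle animals 3 and 8 held 0 and 1 read of it. Hspb1 was at 0 in 4 of the 24 FFPE libraries and differed by at most 0.99 in size, with an SE of 1.05. Hspa8 and Hsph1 differed by -0.44 to 0.29 at an SE of 0.30 and by -0.19 to 0.24 at an SE of 0.28.

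Whether FFPE and FROZ liver gave different responses was tested on the difference between the 2 libraries of each animal, over the 6591 genes in both tables. No member passed FDR under 0.05 at any dose by limma, and 2, 0 and 2 of all genes did at the 3 doses (0.0303%, 0% and 0.0303%). At an unadjusted p under 0.05 there were 1, 1 and 0 of 7 members, against 12%, 8.27% and 2.34% of all genes, so these shares lie near the background. The difference in response for Hspa1a was -1.68 (SE 0.91), 0.11 (SE 0.91) and -0.62 (SE 0.91), so gaps of over 1 log2 unit in either direction could not be told from 0. Hspd1 at 198 mg/kg-d (0.77, SE 0.36, limma FDR 0.39) and Hsp90aa1 at 313 mg/kg-d (0.52, SE 0.24, limma FDR 0.58) were the 2 at the unadjusted level.

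Levels differed between FFPE and FROZ liver for all 7 members in both tables, as they did for 75.3% of all genes (40% higher and 35.3% lower in FFPE), with CPM rescaled over the genes in both tables. Hspe1 was lower in FFPE by 2.47 (SE 0.31, limma FDR 6e-08) and lower in 23 of 24 animals. Hspa8 was lower by 2.03 (SE 0.12, limma FDR 1.2e-14) and in 24 of 24 animals. Hspd1 (-1.01, SE 0.13, 22 of 24 animals) and Hsp90aa1 (-0.68, SE 0.08, 23 of 24 animals) were lower too. Hspa1a was higher in FFPE by 1.55 (SE 0.32, limma FDR 0.00011, 18 of 24 animals), Hspb1 by 1.47 (SE 0.37, limma FDR 0.00098, 17 of 24 animals) and Hsph1 by 0.43 (SE 0.09, limma FDR 6.8e-05, 20 of 24 animals). The median of all shared genes was 0.12. The Hspa1a level difference carries the uncertain division of reads with Hspa1b, which FROZ does not list, and so does its response difference above.

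**Figure D5:**
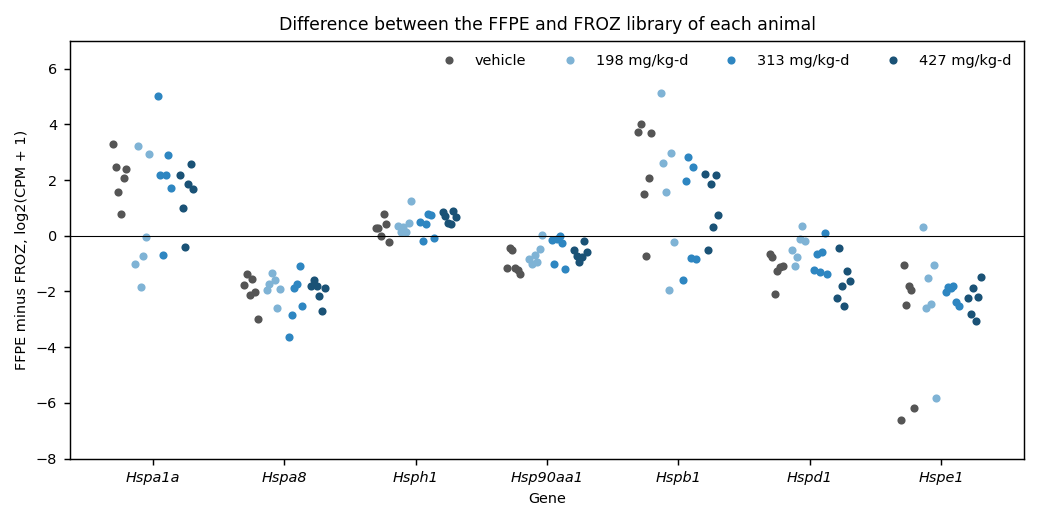
FFPE minus FROZ log2(CPM + 1) for each of the 24 animals and the 7 members in both tables, coloured by dose, after scaling both tables to the genes they share. All Hspa8 points lie below 0, between -3.64 and -1.10, while those of Hspa1a and Hspb1 spread from -1.85 to 5.01 and from -1.95 to 5.14.

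The FFPE and FROZ libraries of an animal ranked alike for some members. With dose means removed, the deviations correlated over 24 animals at Pearson r = 0.64 for Hsph1 (Spearman rho 0.66), 0.55 for Hsp90aa1 (rho 0.48) and 0.43 for Hspa1a (rho 0.32), beside a median of 0.087 over all 6591 shared genes. Over these 7 relations the adjusted permutation p, with animals permuted within a dose and chosen after the data were seen, was 0.018 for r and 0.011 for rho in Hsph1, 0.028 and 0.09 in Hsp90aa1, and 0.12 and 0.29 in Hspa1a. The raw permutation p for r was 0.0025, 0.0079 and 0.052. Without the 2 animals farthest from the median in FROZ, r was 0.56, 0.37 and 0.36. For Hspa8, Hspd1, Hspb1 and Hspe1, r was 0.26, 0.19, 0.14 and 0.061 (adjusted permutation p from 0.47 to 0.74), and without the 2 farthest animals 0.40, -0.01, 0.36 and -0.05. For Hspa8 and Hspb1 these last values are as high as those of Hsp90aa1 and Hspa1a, so no order among these 4 was read. The summed Hspa1a and Hspa1b of FFPE correlated with FROZ Hspa1a at r = 0.41.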

How the data were processed

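The deposited values are log2(CPM + 1), made by the authors from TempO-Seq reads aligned to mm10 with STAR 2.6 in Partek Flow, counted on RefSeq transcripts by expectation maximization, filtered for low expression and scaled to CPM separately in the FROZ and FFPE tables. No raw counts were used here. The members and the other gene lists were chosen with earlier results of these data known. All listed members are named, and of the other chaperones the 20 with the lowest FDR at 427 mg/kg-d in FROZ. Some beyond that rule are named to complete a compartment or family, and Bag3 for its call at 313 mg/kg-d. Groups came from sample titles. Each table of 24 libraries was fitted with limma 3.58.1 in R 4.3.3 (eBayes with trend), with Benjamini-Hochberg FDR over all genes of the table and no filter. Scripts were tested on simulated data. Alternatives were an offset of 0.1, median-ratio scaling, mean CPM of at least 10, no trend, array weights, 2 groups only, rank tests with 100000 permutations, and leaving out each animal. Libraries of an animal were paired: over 4815 genes their deviations from dose means correlated at a median r of 0.13, against -0.02 between animals of a dose. Taking out dose means pulls that second value below 0, and the lowest same-animal r was -0.017. Fold changes on log2(CPM + 1) understate those of low genes. Positions are from GENCODE vM21 and RefSeq on GRCm38 (mm10).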

Additional observations from a re-analysis of the deposited data

Results flagged for a closer look

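In 8 of 68 dose groups of 6 livers, the highest or lowest value stood apart from the other 5 by more than Dixon's limit, and chance gives that in about 1 of 20 groups. In FROZ, Hspa8 was 11.23 in animal 73 at 313 mg/kg-d, where the others lay between 9.89 and 10.3. Hsp90aa1 was 7.895 in vehicle animal 7 and 8.42 to 8.67 in the others. Hspb1 was 1.809 in vehicle animal 5, against 0.43 to 0.81, and 0.7425 in animal 98 at 427 mg/kg-d, against 1.505 to 1.853. Hspd1 was 6.41 in animal 49 at 198 mg/kg-d, against 6.73 to 6.86. In FFPE at 198 mg/kg-d, animal 54 held Hspa1b at 3.279, against 0 to 1.02, and Hsp90aa1 at 8.812, against 7.69 to 8.04. Hspa8 was 7.336 in animal 53 of that group, against 8.62 to 9.04. All values are log2(CPM + 1).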

How the results depend on the processing

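Scaling, the filter on low values and the choice of animals each moved FROZ member counts. With median-ratio scaling 2 members passed at 313 mg/kg-d and 2 at 427 mg/kg-d, in place of 4 at each, since Hspe1 (limma FDR 0.070 and 0.27) and Hspb1 (limma FDR 0.076 and 0.053) no longer passed. With genes at a mean CPM of at least 10, which leaves out Hspa1a and Hspb1, 0 members passed at 198 mg/kg-d, and 2 did at 427 mg/kg-d and 2 in the dose trend. Rank tests called 2 members for the FROZ trend and 1 (Hsp90aa1) for the FFPE trend, where array weights also gave 1. In FFPE at 427 mg/kg-d, array weights gave 1 call and the fit of only the 2 groups gave 1, both Hspa1a. The cause was not tested.

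Leaving out 1 animal changed the FROZ count at 427 mg/kg-d to between 2 and 5, with 2 without animal 6, 7, 8, 100 or 102 and 5 without animal 98. The FFPE count ranged from 0 to 1 at 198 mg/kg-d, with Hspa1a called without animal 50 (-4.47), and from 0 to 1 at 313 mg/kg-d, with Hsp90aa1 called without animal 4 (1.08) or 78 (1.09). Fits of both tables without the replicate block (the pairing by animal) gave 7 members for the level and 0 for the response at each dose, so the block changed no call. Fits within FROZ or FFPE hold 1 library per animal and no pairing.

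Of 2911 single values under alternatives, 67 changed sign, and none of these had passed the threshold. With median-ratio scaling Dnajb1 in FROZ was -0.049 at 427 mg/kg-d and -0.021 in the trend, FFPE Hspa8 was -0.0020 in the trend, and the response difference of Hspa8 at 427 mg/kg-d was 0.038. With array weights the FROZ trend of Dnajb1 was -0.0088, FFPE Hspb1 was 0.24 at 198 and 0.044 at 427 mg/kg-d, FFPE Hsph1 was -0.088 at 198 mg/kg-d, and FFPE Hspd1 was 0.18 at 427 mg/kg-d. With an offset of 0.1, FFPE Hspa1b was 0.23 at 427 mg/kg-d and 0.077 in the trend. Without 1 animal, FROZ Hspa8 at 198 mg/kg-d ranged from -0.14 to 0.043, Hspa2 at 313 mg/kg-d from -0.19 to 0.041, and Dnajb1 from -0.12 to 0.17 at 427 mg/kg-d and from -0.032 to 0.035 in the trend. In FFPE at 198 mg/kg-d, Hspa8 ranged from -0.046 to 0.30, Hspb1 from -1.004 to 0.1995 and Hsph1 from -0.092 to 0.21. At 427 mg/kg-d, FFPE Hspa1b ranged from -0.81 to 0.29 and Hspd1 from -0.22 to 0.15. In the FFPE trend, Hspa1b ranged from -0.13 to 0.12, Hspa8 from -0.0083 to 0.061, Hspd1 from -0.026 to 0.087 and Hsph1 from -0.0022 to 0.060. The response difference ranged from -0.090 to 0.26 for Hspa8 and from -1.38 to 0.039 for Hspb1 at 198 mg/kg-d, from -0.45 to 0.70 for Hspa1a at 313 mg/kg-d and from -0.23 to 0.12 for Hspa8 at 427 mg/kg-d.

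FFPE depth limits the low members: 3 reads correspond to a log2 value of 0.58 to 1.40 there and 0.38 to 0.53 in FROZ.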
